A study of Mus musculus with 24 samples.

Results

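The interleukin-1 family is represented by 10 genes chosen by name: the cytokines Il1a, Il1b, Il18 and Il33, the receptor antagonist Il1rn, the receptor chains Il1r1, Il1r2, Il1rap and Il18r1, and the binding protein Il18bp. Each gene had 1 probe set of its own, so the family made up 10 of the 18820 genes and 10 of the 35556 probe sets measured, and all 10 were tested without a filter on low values. Expression was measured on 24 whole-transcript arrays, 3 in each of 8 groups of tissue and genotype. The groups were duodenum, jejunum, ileum and liver of male Casp1-null mice and the same tissues of male wild-type C57BL/6 mice, aged 14 to 16 weeks and kept on chow. The Casp1-null line lacks caspase-1 in every cell and had been backcrossed to C57Bl/6, and the controls were age-matched C57Bl/6J animals. Livers came from mice fasted for 16 h and were profiled as whole tissue. Intestinal samples were epithelium scraped from mice that had been fasted overnight and given 200 µL olive oil into the stomach 2 h before the tissue was taken, in both genotypes. The study gave 3 mice per genotype, and no label says whether equal replicate numbers mark the same mouse.

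Interleukin-1 family cytokines are alarm signals of injury and infection, and each is read by a ligand-binding receptor chain that must recruit an accessory chain before it can signal through MyD88 to NF-kappaB. Il1b and Il18 are made as inactive precursors that caspase-1 cuts inside inflammasomes, whereas Il1a and Il33 are active without that step. The intestinal epithelium is known as a store of Il18 precursor, and hepatocytes are known to respond to interleukin-1 with acute phase proteins. Loss of caspase-1 acts on the precursor proteins, and the arrays measured only the transcripts.

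The targeted gene was examined first. Casp1 read 6.42, 6.42 and 6.53 on the Casp1-null duodenal arrays, against 8.36, 8.26 and 8.98 on the wild-type arrays (log2 expression). The log2 differences of Casp1 were -2.07 in duodenum, -3.07 in jejunum and -2.22 in ileum (limma, adjusted p = 0.000166, 3.06e-06 and 9.28e-05), with no overlap between genotypes in any segment. In liver the difference was -0.34 and was not called (limma, adjusted p = 0.503), and both genotypes lay below the lowest array median there, so the liver arrays do not check the labels. Which Casp1 exons the probes cover is not known here.

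Several arrays stood apart in markers of other cell types. The mean of 8 smooth muscle and stroma markers was 5.99, 5.44 and 5.79 on Casp1-null duodenal arrays and 4.85, 4.80 and 4.67 on wild-type duodenal arrays, and 6 of the 8 markers did not overlap between these groups. Other marker means also stood apart by genotype in duodenum, at 5.75 to 6.53 in Casp1-null and 5.40 to 5.55 in wild type for 8 macrophage and monocyte markers, 6.31 to 6.83 and 5.48 to 5.75 for 3 B and plasma cell markers, and 4.58 to 4.99 and 4.39 to 4.46 for 5 endothelium markers. Tuft cell markers, 4 in number, went the other way, at 5.65 to 5.84 in Casp1-null and 5.92 to 6.14 in wild type. So did 6 exocrine pancreas markers, at 4.27 to 4.47 and 4.56 to 9.98. In jejunum macrophage and monocyte markers were higher in Casp1-null, at 5.93 to 6.82 against 5.60 to 5.90 in wild type. Tuft cell markers were lower there, at 5.20 to 5.76 against 5.98 to 6.19, and so were exocrine pancreas markers. In liver, endothelium (8.21 to 8.29 against 8.33 to 8.40), enterocyte, goblet, Paneth, mast, T and B cell markers were lower in Casp1-null without overlap. Hepatocyte and exocrine pancreas markers were higher there, by narrow margins. The smooth muscle and stroma mean was 6.30 on Casp1-null jejunal array 3, 8.95 on Casp1-null ileal array 3 and 9.21 on wild-type ileal array 2. On the other jejunal and ileal arrays it was 4.60 to 5.15. Wild-type duodenal array 1 averaged 9.98 over 6 exocrine pancreas markers, where the other intestinal arrays lay between 4.27 and 4.97. Enterocyte markers averaged 12.09 to 12.87 on every intestinal array, and hepatocyte markers 13.16 to 13.27 on every liver array. The median of all probe sets was 4.87 to 5.01 per intestinal array and 5.19 to 5.22 per liver array.

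Il18 and Il33 were the intestinal cytokine transcripts of the family, while Il1r1, Il1rap and Il1a were far higher in liver. The deposited table gives no detection call, so a group mean below the lowest array median of its tissue, 4.87 in intestine and 5.19 in liver, was read as not shown to be above background. By that reading Il18, Il1rn and Il18bp were above background in 8 of 8 groups, Il1rap in 7, Il33 in 5, Il1a, Il1b and Il1r1 in 2 each (both liver groups), Il1r2 in 1 and Il18r1 in 0. For Il33 the 5 include Casp1-null ileum, whose mean of 4.88 was just above the median through array 3 alone. In scraped tissue, fewer cells of a type and less RNA per cell cannot be told apart. Levels of different probe sets are not comparable, and every comparison given here is within 1 probe set.

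**Figure D1:**
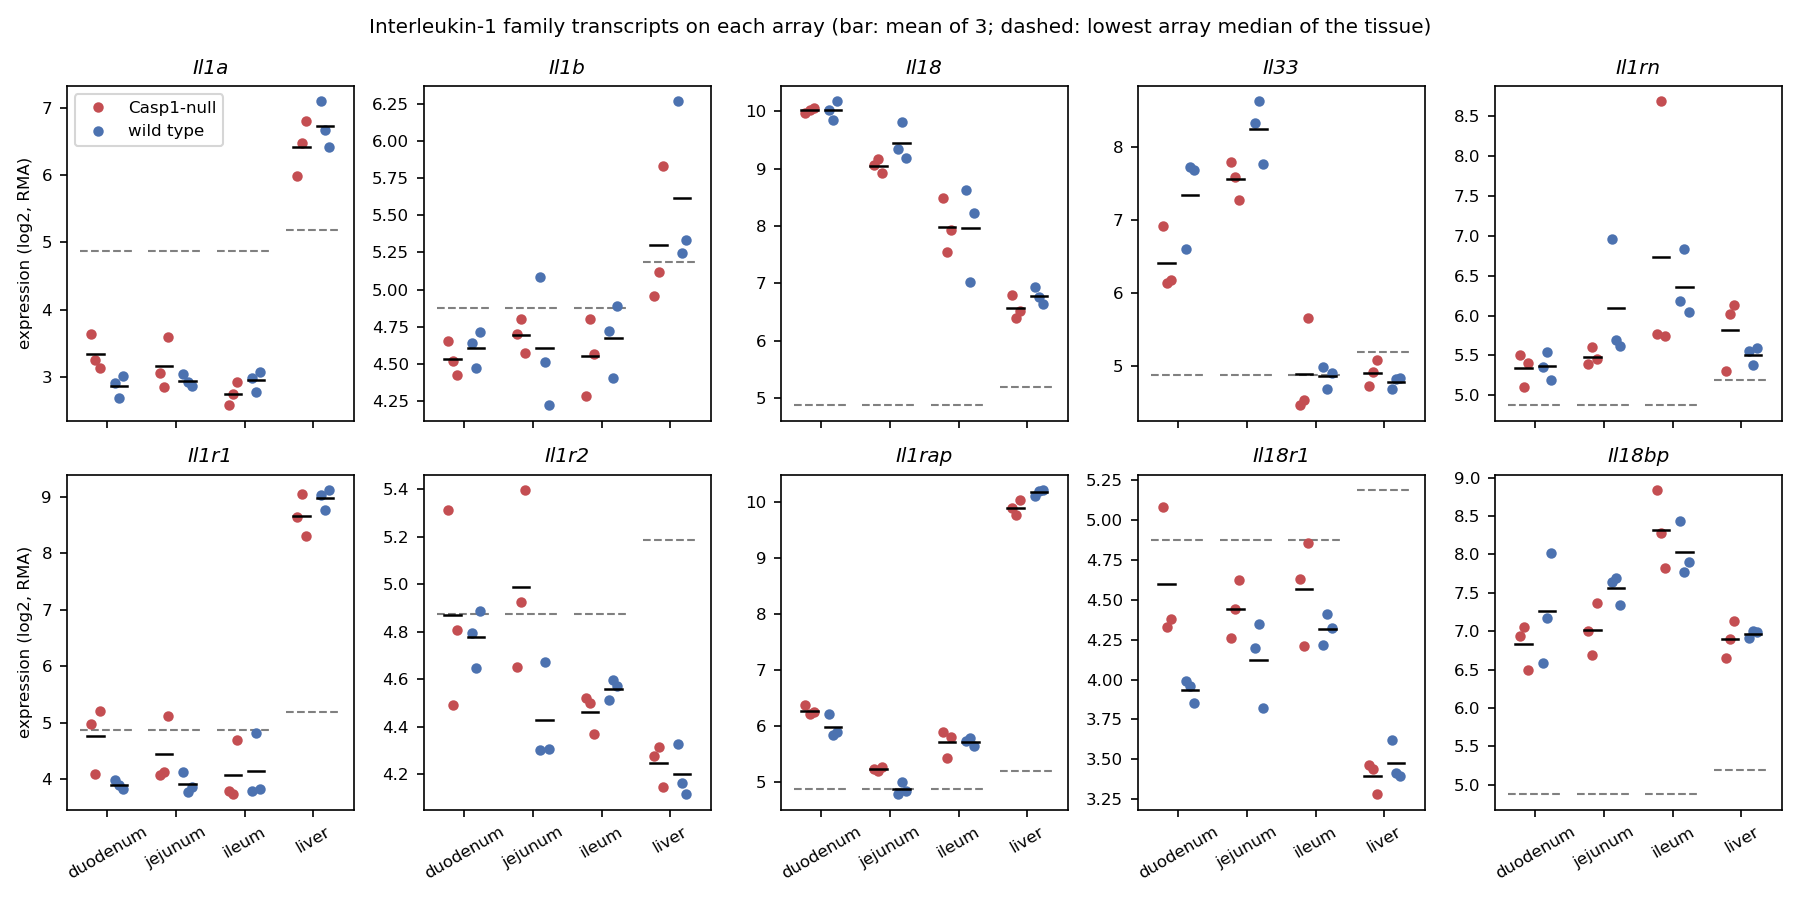
Log2 expression (y axis) of the 10 transcripts on every array by tissue (x axis), Casp1-null to the left of wild type, with bars for the mean of 3 arrays and dashed lines for the lowest array median of the tissue. Il18 steps down from duodenum to liver, Il33 is low in ileum and liver, and Il1a, Il1r1 and Il1rap are highest in liver.

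Caspase-1 loss was compared with wild type in each tissue. No member differed between genotypes past the threshold in any tissue: limma called 0 of 10 in duodenum, jejunum, ileum and liver, with 5, 2, 0 and 1 members at an unadjusted p under 0.05. Over all probe sets, 1.03% were called in duodenum, 1.63% in jejunum, 0.726% in ileum and 0.726% in liver. Averaged over the 3 segments, 0 of 10 members were called, with 4 at an unadjusted p under 0.05, where 1.8% of all probe sets were called. These shares are for the adjusted threshold and give no base for the unadjusted counts here or below, since far more probe sets pass unadjusted. Il1r2, at an unadjusted limma p of 0.0498 for the segment mean, ranked 4682 of 35556 probe sets. Il1r1, at 0.0309 in duodenum, ranked 3260. The median difference of the 10 members was 0.05 in duodenum, 0.15 in jejunum, 0.01 in ileum and -0.14 in liver, against -0.03, -0.01, 0.00 and 0.00 over all probe sets. With 3 arrays per group the intervals were wide. For Il18 in duodenum the 95% interval ran from -0.67 to 0.67, and for Il1rn in ileum from -0.86 to 1.61.

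Genotype groups that did not overlap were counted apart from the test. They numbered 4 of 10 members in duodenum, all higher in Casp1-null (Il1a, Il1r1, Il1rap and Il18r1), where 20.2% of all probe sets did not overlap. The means of stroma, macrophage, B cell and endothelium markers were higher in the same Casp1-null duodenal arrays. Those of tuft cell and exocrine pancreas markers were lower. The part of these cell types in the 4 differences was not tested. In jejunum there were 3, Il1rap higher and Il18 and Il1rn lower in Casp1-null, against 17.3% of all probe sets. Macrophage markers were also higher, and tuft cell and exocrine pancreas markers lower, on these Casp1-null arrays. In ileum there were 0 (9.28% of all probe sets), and in liver 1, Il1rap, lower in Casp1-null (17.6% of all). Several marker means, among them endothelium, also stood apart by genotype in liver. The part of cell types in the jejunal and liver differences was not tested. Of the 4 duodenal members, 3 (Il1a, Il1r1 and Il18r1) had both group means below the array median, so no size can be read from their differences.

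**Figure D2:**
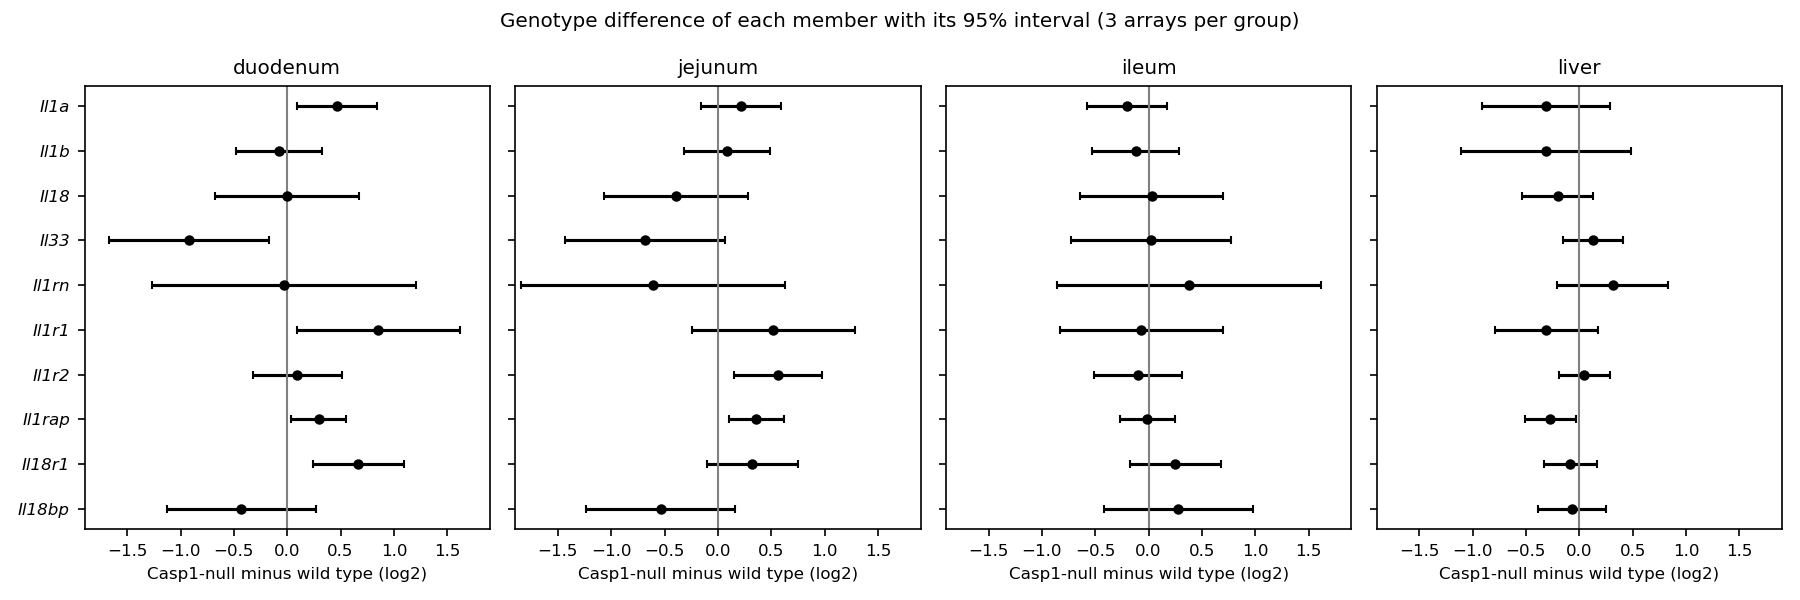
Difference Casp1-null minus wild type (x axis, log2) of each of the 10 members (y axis) in the 4 tissues, with points for the limma estimate and bars for its 95% interval. None of the 40 differences passed the adjusted threshold. Intervals below 0 are those of Il33 in duodenum, -1.67 to -0.17, and Il1rap in liver. Intervals above 0 are those of Il1a, Il1r1, Il18r1 and Il1rap in duodenum and of Il1r2 and Il1rap in jejunum.

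The genotype difference was also compared between tissues. Limma called 0 of 10 members for jejunum minus duodenum, ileum minus jejunum and ileum minus duodenum, with 0, 2 and 1 members at an unadjusted p under 0.05, and 0.0337%, 0.0281% and 0.0562% of all probe sets called. When the liver difference was set against the segment mean it called 0 of 10, with 2 at an unadjusted p under 0.05, against 2.01% of all probe sets. Il1rap had the smallest p of that comparison and is described with the receptor chains.

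Position along the small intestine was compared within each genotype. Il18 and Il33 fell from the proximal segments to the ileum, and Il1rap was lowest in jejunum. In wild-type mice limma called 1 of 10 members for jejunum minus duodenum (5.96% of all probe sets), 3 for ileum minus jejunum (11.8%) and 2 for ileum minus duodenum (23%). In Casp1-null mice it called 1 (3.97%), 4 (9.69%) and 5 (16.5%) for the same comparisons. Comparisons of 1 genotype share the arrays of a segment and are not independent of each other.

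**Figure D3:**
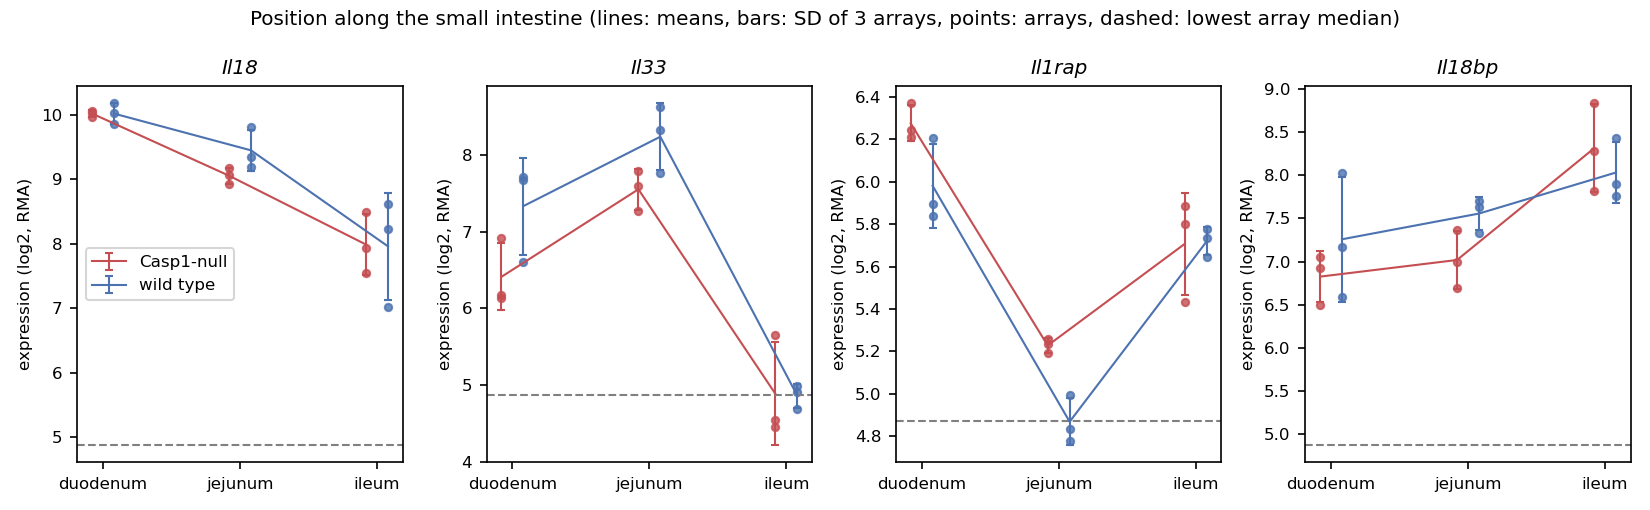
Log2 expression (y axis) of Il18, Il33, Il1rap and Il18bp by segment (x axis), Casp1-null in red to the left of wild type in blue, with points for arrays, lines for means, bars for the SD of 3 arrays and a dashed line for the lowest intestinal array median. Il18 falls along the intestine, Il33 is near the dashed line in ileum, and Il1rap dips in jejunum in both genotypes.

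Liver was set against the mean of the 3 segments. In wild-type mice 9 of 10 members were called, 4 higher (Il1rap, Il1a, Il1r1 and Il1b) and 5 lower (Il18, Il33, Il18r1, Il18bp and Il1r2) in liver, in a comparison that called 63.4% of all probe sets, 35.8% higher and 27.5% lower. In Casp1-null mice 8 were called, the same genes without Il18bp, with 63.5% of all probe sets called, 37.2% higher and 26.3% lower. For Il18r1 and Il1r2 the liver mean and the segment mean were below the array median in both genotypes, so these calls carry no size. Wild-type Il1r2 arrays of liver and intestine overlapped. That Il1r2 call was lost without wild-type liver array 2 or 3 (limma, adjusted p = 0.0793 and 0.0994). Liver and intestine differed in tissue, in whole tissue against scraped epithelium and in fasting against oil gavage, and these cannot be told apart.

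Il18 is the cytokine that drives interferon-gamma production by T and NK cells, and its precursor is a caspase-1 substrate. It read 9.96, 10.02 and 10.06 on the Casp1-null duodenal arrays, and 10.02, 9.85 and 10.17 on the wild-type arrays. The genotypes interleaved there, and their means differed by 0.00. In jejunum it read 9.06, 9.17 and 8.92 in Casp1-null and 9.34, 9.81 and 9.19 in wild type. The 3 jejunal Casp1-null arrays lay below the wild-type arrays by a narrow margin, and the difference of -0.39 was not called (95% interval -1.07 to 0.28, limma adjusted p = 0.757).

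In ileum Il18 read 8.48, 7.54 and 7.93 in Casp1-null and 8.62, 7.02 and 8.23 in wild type. Every ileal array lay below every jejunal array in both genotypes. In wild-type mice Il18 was 2.80-fold lower in ileum than in jejunum (log2 difference -1.49 ± 0.32 SE, limma adjusted p = 0.00585) and 4.16-fold lower in ileum than in duodenum (-2.06 ± 0.32 SE, adjusted p = 0.000212). The lowest ileal value, 7.02, came from wild-type array 2, which was also high in stroma markers, and without both stroma-rich ileal arrays the differences were -1.02 and -1.59 and were still called (limma, adjusted p = 0.0188 and 0.000431). With only the arrays of the 2 groups compared, the wild-type ileum minus jejunum call was lost (-1.49, adjusted p = 0.0864). In Casp1-null mice Il18 was 4.09-fold lower in ileum than in duodenum (-2.03, adjusted p = 0.000336). The Casp1-null ileum minus jejunum difference of -1.07 (adjusted p = 0.0455) was lost in 9 of 17 alternatives, 5 of them leaving out a single array, with values between -1.32 and -0.85 over all 17.

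Il18 was lowest in liver, at 6.80, 6.40 and 6.53 in Casp1-null and 6.94, 6.76 and 6.64 in wild type. Liver lay 5.44-fold below the mean of the segments in Casp1-null mice and 5.13-fold below it in wild-type mice (limma, adjusted p = 2.12e-08 and 3.37e-08). The genotype difference in liver, -0.20, was not called (95% interval -0.53 to 0.12). The order of Il18 was thus duodenum (10.01 ± 0.05 in Casp1-null, 10.01 ± 0.16 in wild type), jejunum (9.05 ± 0.12 and 9.44 ± 0.32), ileum (7.98 ± 0.47 and 7.96 ± 0.83) and liver (6.57 ± 0.21 and 6.78 ± 0.15), as means ± SD of 3 arrays. The step from duodenum to jejunum, -0.96 in Casp1-null and -0.57 in wild type, was not called (limma, adjusted p = 0.12 and 0.381), although no arrays overlapped.

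The start-site sequences of Il18, Il33 and Il1rap, the members called between segments in both genotypes, are shown because they let a reader see how the regions differ in composition. They run from 250 bases before to 50 bases after the RefSeq start (GRCm38.p6), 5′ to 3′ on the gene's strand, and capitals mark matches to 2 letter patterns searched on both strands, TATAAA and a loose NF-kappaB pattern, GGG and CC with 5 bases of any kind between them. TATAAA occurs in 13.6% and the NF-kappaB pattern in 50.8% of 32851 start regions of the same table, so a match describes letters and is not a binding site. The Il18 region, on chr9:50554450-50554749, plus strand, has 36.7% G and C and 1 CpG, against medians of 52.7% and 7 over the table. It holds 1 TATAAA match, on the minus strand at position -175 from the start.
Il18, start: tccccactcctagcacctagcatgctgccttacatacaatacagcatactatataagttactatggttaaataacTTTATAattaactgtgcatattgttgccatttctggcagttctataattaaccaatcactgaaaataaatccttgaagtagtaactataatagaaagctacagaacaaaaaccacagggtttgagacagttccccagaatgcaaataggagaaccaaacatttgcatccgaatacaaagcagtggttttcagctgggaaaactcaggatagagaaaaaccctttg

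Il33, a nuclear alarm cytokine that acts on mast cells, innate lymphoid cells and regulatory T cells, was high in duodenum and jejunum. In duodenum it read 6.91, 6.14 and 6.18 in Casp1-null and 6.60, 7.72 and 7.68 in wild type. Wild-type array 1, the one with pancreas markers, lay among the Casp1-null arrays, and the other 2 wild-type arrays lay above all of them. In jejunum Il33 read 7.80, 7.59 and 7.27 in Casp1-null and 8.33, 8.63 and 7.76 in wild type, with the groups touching at 7.80 and 7.76.

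Il33 was lower in Casp1-null by 0.92 in duodenum (95% interval -1.67 to -0.17, limma adjusted p = 0.278) and by 0.69 in jejunum (-1.44 to 0.06, adjusted p = 0.504), and neither difference was called. Without wild-type duodenal array 1 the duodenal difference was -1.29 (adjusted p = 0.134). Averaged over segments the difference was -0.53 (95% interval -0.82 to -0.24, adjusted p = 0.111), the Casp1-null values lay below the wild-type values, as 9.83% of all probe sets did, and over 13 alternatives the adjusted p ran from 0.0695 to 0.297. In ileum the difference was 0.02, with an interval of -0.73 to 0.77.

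Ileal Il33 read 4.46, 4.54 and 5.66 in Casp1-null and 4.99, 4.69 and 4.90 in wild type. The highest value belonged to Casp1-null array 3, an array rich in stroma markers, and the other 5 lay close to the array median. In wild-type mice Il33 was at least 10.3-fold lower in ileum than in jejunum (log2 difference -3.38 ± 0.35 SE, limma adjusted p = 1.78e-05) and at least 5.50-fold lower in ileum than in duodenum (-2.47 ± 0.35 SE, adjusted p = 0.000108). "At least" is used because the ileal mean was below the lowest array median, which then stood in for it. The Casp1-null ileal mean of 4.88 was just above that median, through array 3 alone, so its differences are given without a bound. In Casp1-null mice the differences were -2.67 (adjusted p = 0.000206) and -1.53 (adjusted p = 0.00685), the second -1.26 and no longer called (adjusted p = 0.159) in the fit without the 3 Casp1-null duodenal and jejunal arrays highest in stroma markers, which left 1 Casp1-null duodenal array.

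Jejunal Il33 was above duodenal Il33 on every array of each genotype, by 1.14 in Casp1-null mice and 0.91 in wild-type mice, and neither difference was called (limma, adjusted p = 0.094 and 0.169). Liver Il33 read 4.72, 4.92 and 5.07 in Casp1-null and 4.68, 4.82 and 4.83 in wild type, below the array median in both. The segment mean exceeded the liver by at least 2.14-fold in Casp1-null mice and at least 3.08-fold in wild-type mice (adjusted p = 0.000111 and 9.68e-07), while ileal arrays overlapped the liver arrays.

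RefSeq gives Il33 2 start sites. The first region lies on chr19:29924863-29925162, plus strand, with 46.3% G and C, 6 CpG and a TATAAA match at -203. The second lies on chr19:29945540-29945839, plus strand, with 42.3% G and C, 5 CpG and a TATAAA match at -29. The single probe set does not tell transcripts of the 2 starts apart here.
Il33, start 1: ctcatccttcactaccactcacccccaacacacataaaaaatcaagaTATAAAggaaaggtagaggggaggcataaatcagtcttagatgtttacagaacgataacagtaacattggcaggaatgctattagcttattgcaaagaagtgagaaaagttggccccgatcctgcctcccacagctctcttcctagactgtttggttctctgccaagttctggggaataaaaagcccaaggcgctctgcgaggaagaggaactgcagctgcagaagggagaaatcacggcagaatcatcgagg
Il33, start 2: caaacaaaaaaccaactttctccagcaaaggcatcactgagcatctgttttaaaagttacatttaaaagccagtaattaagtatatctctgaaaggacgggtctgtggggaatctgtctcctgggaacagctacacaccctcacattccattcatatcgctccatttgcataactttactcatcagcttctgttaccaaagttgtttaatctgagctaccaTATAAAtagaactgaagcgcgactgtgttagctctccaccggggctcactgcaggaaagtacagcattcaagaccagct

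Il1a, a cytokine active as its precursor and held in many cells, was measured above background only in liver. It read 5.98, 6.47 and 6.81 in Casp1-null liver and 7.10, 6.68 and 6.42 in wild-type liver. The genotypes overlapped, and the difference was -0.31 (95% interval -0.91 to 0.29). Liver exceeded the intestine at least 2.92-fold in Casp1-null mice and at least 3.62-fold in wild-type mice (limma, adjusted p = 1.47e-12 and 1.59e-13). Intestinal Il1a lay between 2.58 and 3.64 on all 18 arrays, far below the array median. The call of lower Il1a in Casp1-null ileum than duodenum (adjusted p = 0.0319) lies wholly in that range and carries no size.

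Il1b, the classical fever cytokine and caspase-1 substrate, was near background in intestine, between 4.22 and 5.08 on the 18 arrays. In liver it read 4.96, 5.12 and 5.83 in Casp1-null and 6.27, 5.25 and 5.33 in wild type. Single arrays, Casp1-null array 3 and wild-type array 1, stood above the rest, and the difference of -0.31 had an interval of -1.11 to 0.48. On the values as deposited, liver lay above the intestine by at least 1.35-fold in Casp1-null mice and at least 1.67-fold in wild-type mice (limma, adjusted p = 0.0063 and 0.000422). The lowest array median was itself higher in liver, 5.19 against 4.87, so these folds are no lower bound once arrays are centred. Casp1-null liver Il1b averaged 5.30 and was above the array median on 1 of 3 arrays. The Casp1-null call was lost under median centring (0.45, adjusted p = 0.0642), under renewed quantile normalization (0.44, adjusted p = 0.0766) and without Casp1-null liver array 3 (0.45, adjusted p = 0.096). Macrophage and monocyte markers were also higher in liver (mean of 8 markers 7.26 to 7.66 against 5.40 to 6.82 in intestine), and their part in the Il1a and Il1b difference was not tested. The 5 neutrophil markers were below the array median in all 8 groups.

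Il1rn, the antagonist that occupies Il1r1 without signalling, varied most between arrays of 1 group. In ileum it read 5.77, 8.69 and 5.74 in Casp1-null and 6.18, 6.84 and 6.05 in wild type. Casp1-null array 2 stood far above every other array, the next being 6.95 in wild-type jejunum, and its stroma marker mean was 4.89. In jejunum Il1rn read 5.39, 5.60 and 5.45 in Casp1-null and 6.95, 5.70 and 5.62 in wild type. Wild-type array 1 carried most of the jejunal difference of -0.61 (95% interval -1.85 to 0.63, limma adjusted p = 0.813), although the groups did not overlap. Duodenal arrays lay between 5.11 and 5.54 and liver arrays between 5.31 and 6.13, and no comparison between tissues or genotypes called Il1rn.

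Il1r1, the signalling receptor for Il1a and Il1b, was a liver transcript in these samples. It read 8.64, 9.06 and 8.30 in Casp1-null liver and 9.04, 8.76 and 9.12 in wild-type liver. The genotypes overlapped (difference -0.31, 95% interval -0.79 to 0.18). Liver exceeded the intestine at least 13.9-fold in Casp1-null mice and at least 17.2-fold in wild-type mice (limma, adjusted p = 4.81e-11 and 3.5e-12). Endothelium markers, 5 in number, averaged 8.21 to 8.40 on the liver arrays and 4.39 to 6.08 on the intestinal arrays, and their part in the Il1r1 difference was not tested.

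In intestine all 6 group means of Il1r1 were below the array median, and 5 single arrays stood above the rest. Duodenal Il1r1 read 4.97, 4.09 and 5.21 in Casp1-null and 3.99, 3.89 and 3.83 in wild type. The groups did not overlap, and the difference of 0.85 was not called (95% interval 0.09 to 1.62, limma adjusted p = 0.337). The high values were those of the arrays high in stroma markers: Casp1-null duodenal arrays 1 and 3, Casp1-null jejunal array 3 (5.12), Casp1-null ileal array 3 (4.69) and wild-type ileal array 2 (4.82), where the other intestinal arrays lay between 3.73 and 4.12. Without the 3 Casp1-null duodenal and jejunal arrays among them the duodenal difference was 0.18 (adjusted p = 1.00), from 1 remaining Casp1-null array.

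**Figure D4:**
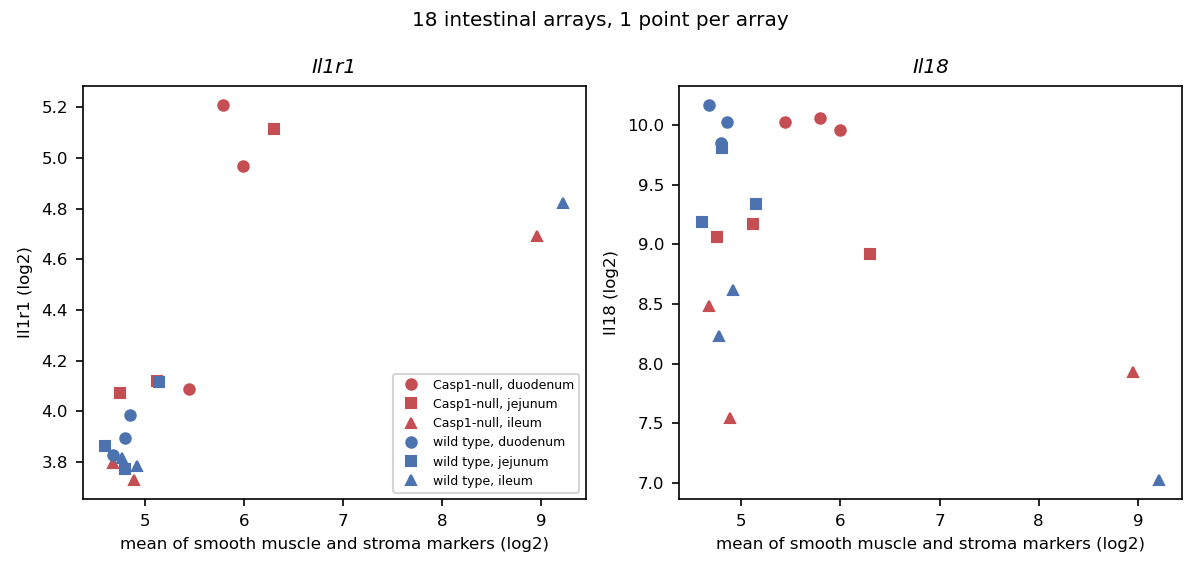
Log2 expression of Il1r1 (left) and Il18 (right) on the 18 intestinal arrays (y axes) against the mean of 8 smooth muscle and stroma markers (x axis, log2), Casp1-null in red and wild type in blue, with a symbol per segment. The 5 arrays with the highest Il1r1, 4.69 to 5.21, are also the 5 with the highest marker mean, and Il18 is ordered by segment on the other arrays.

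Il1r2, the decoy receptor that binds interleukin-1 without signalling, was at or below the array median on most arrays. In jejunum it read 4.65, 4.93 and 5.40 in Casp1-null and 4.30, 4.67 and 4.31 in wild type. The ranges overlapped by a small margin, and the difference of 0.56 was not called (95% interval 0.15 to 0.98, limma adjusted p = 0.224). Because the wild-type mean was below the array median and the difference was not called, no size is read from it. Without the stroma-rich Casp1-null arrays the difference was 0.36. In liver both means were below background.

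Il1rap, the accessory chain that the receptors for interleukin-1 and Il33 share, was the member with the clearest pattern over tissues. It read 9.89, 9.76 and 10.03 in Casp1-null liver and 10.10, 10.19 and 10.20 in wild-type liver. Liver exceeded the mean of the segments 17.9-fold in Casp1-null mice and 25.0-fold in wild-type mice (limma, adjusted p = 1.12e-18 and 1.75e-19). The liver genotypes did not overlap, and their difference of -0.27 was not called (95% interval -0.51 to -0.03, adjusted p = 0.371).

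In duodenum Il1rap read 6.37, 6.21 and 6.24 in Casp1-null and 6.21, 5.84 and 5.89 in wild type. In jejunum it read 5.23, 5.19 and 5.26 in Casp1-null and 4.78, 4.99 and 4.84 in wild type. In ileum it read 5.89, 5.43 and 5.80 in Casp1-null and 5.73, 5.78 and 5.65 in wild type. Jejunum was thus lowest in both genotypes, with no jejunal array reaching a duodenal or ileal one of its genotype.

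Il1rap fell in jejunum against duodenum by 1.05 in Casp1-null mice and by 1.11 in wild-type mice on the log2 scale, 2.07-fold in the first and at least 2.15-fold in the second (limma, adjusted p = 9.29e-05 and 4.22e-05). In ileum against jejunum it was 0.85 higher in wild-type mice, at least 1.80-fold (adjusted p = 0.000286). The Casp1-null ileum minus jejunum difference of 0.48 (adjusted p = 0.0198) was lost in 9 of 17 alternatives, among them median centring of the arrays (0.42, adjusted p = 0.0623). In Casp1-null mice ileum was 0.57 below duodenum (adjusted p = 0.00384), a call lost with only the arrays compared (adjusted p = 0.0505) and in the fit without the stroma-rich Casp1-null arrays, which kept 1 Casp1-null duodenal array (-0.50, adjusted p = 0.123), and in wild-type mice it was 0.26 below (adjusted p = 0.136).

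The genotype difference of Il1rap was 0.29 in duodenum (95% interval 0.04 to 0.55, limma adjusted p = 0.322), 0.36 in jejunum (0.10 to 0.62, adjusted p = 0.203) and -0.01 in ileum (-0.27 to 0.24, adjusted p = 0.999). The groups did not overlap in duodenum and jejunum. The wild-type jejunal mean was just below the lowest array median and the difference was not called, so no size is read from the jejunal difference. The duodenal gap was narrow, 6.21 being both the lowest Casp1-null and the highest wild-type value after rounding. Liver minus segment mean, as a difference of genotype differences, was -0.48 (95% interval -0.76 to -0.21, adjusted p = 0.0677). It passed the threshold with array weights (-0.56, adjusted p = 0.0134), without wild-type duodenal array 1 (-0.52, adjusted p = 0.0308) and without Casp1-null ileal array 2 (-0.53, adjusted p = 0.016).

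The Il1rap start region, on chr16:26581455-26581754, plus strand, has 72% G and C and 33 CpG. Its capitals merge 9 matches to the NF-kappaB pattern on both strands, several of which overlap, and it holds no TATAAA. No start region of the 10 members held the letters AGATAA, which 11.2% of all regions hold.
Il1rap, start: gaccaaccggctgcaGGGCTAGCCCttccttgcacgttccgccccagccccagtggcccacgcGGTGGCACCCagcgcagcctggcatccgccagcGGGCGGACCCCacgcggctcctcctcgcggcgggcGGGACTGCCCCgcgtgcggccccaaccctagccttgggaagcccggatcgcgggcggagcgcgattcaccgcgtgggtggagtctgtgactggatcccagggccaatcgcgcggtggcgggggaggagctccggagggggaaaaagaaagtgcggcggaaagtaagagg

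Il18r1, the ligand-binding chain for Il18, was below the array median in all 8 groups. In duodenum it read 5.08, 4.33 and 4.38 in Casp1-null and 3.99, 3.96 and 3.85 in wild type. The groups did not overlap, and the difference of 0.66 was not called (95% interval 0.24 to 1.09, limma adjusted p = 0.155). Without the stroma-rich Casp1-null arrays it was 0.39. Its partner Il18rap was also below the median, between 3.28 and 4.11 on the 24 arrays.

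Il18bp, the soluble protein that binds and neutralises Il18, was above background in all 8 groups. In ileum it read 8.84, 8.28 and 7.82 in Casp1-null and 8.44, 7.77 and 7.89 in wild type. In jejunum it read 7.00, 6.69 and 7.37 in Casp1-null and 7.64, 7.70 and 7.33 in wild type, and in duodenum 6.93, 7.05 and 6.50 in Casp1-null and 6.59, 7.17 and 8.02 in wild type. Casp1-null ileum lay above both proximal segments without overlap.

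Il18bp in Casp1-null mice was 2.45-fold higher in ileum than in jejunum (log2 difference 1.29, limma adjusted p = 0.0207, lost in 4 of 17 alternatives) and 2.80-fold higher in ileum than in duodenum (1.49, adjusted p = 0.0051, lost in 1 of 17, the fit with 1 Casp1-null duodenal array, at 1.26). In wild-type mice the same differences were 0.48 (adjusted p = 0.418) and 0.77 (adjusted p = 0.106) and were not called. The test of the difference between genotypes gave 0.82 for ileum minus jejunum (95% interval -0.17 to 1.80) and 0.71 for ileum minus duodenum (-0.27 to 1.70), neither called (adjusted p = 1.00 and 0.836), so a genotype-specific step is not shown. In liver Il18bp read 6.66, 6.90 and 7.13 in Casp1-null and 6.91, 7.00 and 6.99 in wild type. In wild-type mice liver was 1.57-fold below the segment mean (adjusted p = 0.0252, lost when any 1 wild-type liver array was left out), and in Casp1-null mice the difference of -0.49 was not called (adjusted p = 0.0856).

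The rest of the family lay mostly below the array median. Of 11 further members listed, 10 had a probe set, Il1f10, Il1rl2, Il18rap, Sigirr, the receptor-like Il1rapl1 and Il1rapl2 and the interleukin-36 genes with their antagonist, and all but Sigirr were below the array median in every group. Sigirr, an inhibitory receptor of the family, averaged 7.64 in Casp1-null and 7.90 in wild-type duodenum, 7.86 in Casp1-null and 7.92 in wild-type jejunum, 7.83 in Casp1-null and 7.61 in wild-type ileum, and 7.07 in Casp1-null and 7.30 in wild-type liver. Limma called 0 of 10 for genotype in duodenum, jejunum, ileum and liver (1, 0, 0 and 1 at an unadjusted p under 0.05) and 0 between segments of either genotype. Il1rl1, the Il33 receptor, had no probe set named for it and was not analysed here.

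Some genes of the inflammasome and maturation list, the targeted Casp1 among them, were called between genotypes in the segments, where no member was. Of 19 measured inflammasome and maturation genes, 1 rose and 4 fell in Casp1-null duodenum, 1 rose and 4 fell in jejunum and 1 rose and 3 fell in ileum. Over all probe sets, 1.03%, 1.63% and 0.726% were called in these segments. Aim2, a DNA sensor, rose by 2.26, 1.27 and 0.90 in the 3 segments (limma, adjusted p = 3.29e-06, 0.000671 and 0.0142). Nlrc4, a sensor adaptor for bacterial flagellin, fell (-1.14, -1.32 and -0.78, limma adjusted p = 0.00083, 0.000225 and 0.0199). Casp4, mouse caspase-11, fell too (-1.46, -1.97 and -1.40, limma adjusted p = 0.015, 0.00141 and 0.0237). Whether the fall of Casp4 comes from the targeting of Casp1 itself was not tested. Casp1 itself is among the genes that fell, and the duodenal count of 5 was 3 with the duodenal arrays alone. It was 2 without the stroma-rich Casp1-null arrays, a fit with 1 Casp1-null duodenal array that is assumed to vary like the other groups. The ileal count of 4 was 1 with the ileal arrays alone and 2 without any of 5 single arrays. In liver 0 of 19 were called, with 2 at an unadjusted p under 0.05.

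Most genes downstream of the receptors were not called. Of 26 measured genes of interleukin-1 receptor signalling, 0 rose, 3 fell and 23 were not called in Casp1-null jejunum, where 1.63% of all probe sets were called: the NF-kappaB subunit Nfkb2 (-1.16) and the inhibitors Nfkbia (-0.74) and Nfkbib (-0.65) (limma, adjusted p = 0.00359, 0.0422 and 0.0348). That count was 0 when the jejunal arrays were fitted alone, and 1 without the stroma-rich Casp1-null arrays, without Casp1-null jejunal array 1 or 2 or without wild-type jejunal array 1 or 3. In duodenum, ileum and liver 0 of 26 were called (2, 0 and 2 at an unadjusted p under 0.05).

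Of 18 measured genes known to be induced by interleukin-1, 2 fell in Casp1-null jejunum and 16 were not called, where 1.63% of all probe sets were called. The chemokine gene Ccl20 read 5.39, 6.79 and 5.26 in Casp1-null and 9.52, 9.32 and 9.68 in wild-type jejunum, a fall of 3.69 (limma, adjusted p = 0.00104). The nitric oxide synthase gene Nos2 read 7.62, 8.54 and 9.01 in Casp1-null and 12.26, 11.99 and 12.10 in wild-type jejunum, a fall of 3.73 (adjusted p = 0.00197). The genotypes were far apart for both genes, although other signals also induce them. In duodenum, ileum and liver 0 of 18 were called (1, 1 and 2 at an unadjusted p under 0.05). Of 12 measured targets of Il18 and Il33, 0 were called in duodenum, jejunum, ileum or liver (1, 2, 2 and 1 at an unadjusted p under 0.05). The shares of all probe sets called there were 1.03%, 1.63%, 0.726% and 0.726%.

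The genes whose pattern was most like a member's were listed by Pearson correlation over the 18 intestinal arrays, as a description across arrays that share segment and array quality. For Il18 they were Cyp3a13 (r = 0.972), Fuom (0.962), Pkm (0.959) and D17H6S53E (0.957). For Il33 they were Slc36a1 (0.961), Acsm5 (0.946), Fbln1 (0.936) and Cerk (0.935). For Il1rn they were Omp (0.881), Lrp8 (0.878), Mapk11 (0.875) and Spdef (0.862), over arrays that include the 1 high ileal one. Il1b, below background in intestine, reached 0.767 with Serpinb7. Over all 24 arrays, where the step between liver and intestine dominates, the leading genes were Adh6a for Il18 (0.972), Creb3l2 for Il33 (0.939), Lrp8 for Il1rn (0.769) and Cabyr for Il1b (0.897).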

How the data were processed

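Total RNA of 24 samples was hybridised to whole-transcript arrays after biotin labelling with an Ambion WT kit, from 100 ng RNA with an integrity number above 8.0 per the labels' protocols. The authors deposited 1 table of log2 expression values made with RMA, per the submitters' processing notes, whose version and probe-set definition are not given in the sources used here. It holds 35556 probe sets, and a platform annotation named 21218 of them with 1 symbol. No scanner files or detection calls were used here, and the number of arrays limits the precision. The values were taken as deposited and tested in limma 3.58.1 (R 4.3.3, lmFit and eBayes, 2-sided, Benjamini-Hochberg over all probe sets, called at an adjusted p of 0.05). Liver genotypes were fitted on 6 arrays with 4 residual degrees of freedom, segments on 18 arrays with 12, the mean over segments on 6 averaged values with 4, and liver against segments on 24 arrays with 16. Averaging the segments takes arrays with the same replicate number together. "At least" folds replace a group mean below the lowest array median of its tissue by that median, a rule chosen after seeing the data. Between liver and intestine they take the values as deposited and do not adjust for the higher array medians of liver. The smallest exact permutation p of 3 against 3 arrays is 0.1, so single values were tested in limma alone. Nothing beyond 3 mice per genotype says that arrays came from separate animals, so p-values measure the spread between arrays. The segments probably came from the same mice, and the fits on 18 arrays treat them as independent arrays.

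Members, gene lists and marker lists were chosen with earlier results of these data known. Named were the members in full, the called genes of the context lists, and for 4 members the 4 genes of highest Pearson correlation. Start-site sequences came from the RefSeq table of GRCm38.p6 by symbol, with all 10 members matched. No array pair held identical values, and within-group correlations ran from 0.979 to 0.993. Figures were drawn with matplotlib 3.10.9 (Python 3.11.15). The fits were tested on simulated data. Alternatives were median centring, renewed quantile normalization, a filter on low values, fits on the compared arrays alone, array weights, a mean-variance trend with robust fitting, the replicate number as a fixed or random block, the segments as independent arrays, a spread pooled over all arrays and each array left out. Leaving out arrays high in stroma or pancreas markers, the contrasts between tissues of Casp1-null mice and the repeats of list counts were added after seeing the data.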

Additional observations from a re-analysis of the deposited data

Results flagged for a closer look

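The Il1rap arrays of the genotypes lay apart in opposite directions in different tissues, without a called difference. Every Casp1-null array was on one side of every wild-type array in duodenum, jejunum and liver, as in 20.2%, 17.3% and 17.6% of all probe sets. The share of probe sets apart in opposite directions was not counted. The difference Casp1-null minus wild type was 0.29 in duodenum and 0.36 in jejunum, against -0.27 in liver (log2), and none of these was called. The duodenal gap was narrow, and the wild-type jejunal mean was just below the lowest array median, so the jejunal value carries no size. In ileum it was -0.01 and the genotypes overlapped. The test of liver against the segment mean, for this genotype difference, gave -0.48 (limma, adjusted p = 0.0677), over alternatives between -0.56 and -0.42 with adjusted p between 0.0134 and 0.206. It was not called in 29 of 33 alternatives.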

How the results depend on the processing

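No call among the members reversed under any alternative run. Of 620 values of the 33 called member differences, 579 were still called and 41 were lost, and of 323 counts of called members 306 were within 1.5 times the value given. For the genotype difference between liver and segments the count of 0 was 1 with array weights and without the duodenal array with pancreas signal (0 to 1 with 1 array left out). With only the arrays of the groups compared, the counts were 4 in place of 2 for wild-type ileum minus duodenum, 2 in place of 1 for Casp1-null jejunum minus duodenum, 1 in place of 4 for Casp1-null ileum minus jejunum and 3 in place of 5 for Casp1-null ileum minus duodenum. Without both ileal arrays high in stroma, Casp1-null jejunum minus duodenum gave 2. Without the 3 Casp1-null arrays highest in stroma, Casp1-null ileum minus jejunum gave 2 and ileum minus duodenum 1. Leaving out 1 array gave 1 to 3 and 4 to 5 for these, 7 to 9 for liver against segments in either genotype, and 0 to 0 for genotype in each tissue. A filter at the median kept 6 members and gave 5 in place of 9 in wild-type and 4 in place of 8 in Casp1-null liver against segments, fewer members being tested. The replicate block gave 0 calls for genotype in every tissue, 1, 3, 2 and 9 for the wild-type and 1, 3, 5 and 8 for the Casp1-null tissue comparisons. The rule used (every pair above 0.1) was not met, so pairing by number was not shown. With 3 arrays per group, deviations from the group mean cannot exclude shared mice. Between segments, deviations of same-numbered arrays correlated at -0.05 to 0.17 in Casp1-null (mean 0.08). In wild type they correlated at -0.10 to 0.15 (mean 0.02), and between genotypes at -0.38 to 0.30. Deviations sum to 0 within a group. The means for different numbers, -0.04 and -0.01, therefore largely follow from the same-number means and are no separate reference. Causes of the other changes were not tested. Signal near the array medians limits Il1a, Il1b, Il1r1, Il1r2 and Il18r1 in intestine.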
